A study of Mus musculus with 12 samples.

Results

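Receptor genes of the class I and class II cytokine families, 10 of the 27179 genes in the deposited count table, were followed across sorted mouse B cells. They were picked by symbol: Il21r, Il4ra, Il13ra1, Il9r, Il6ra, Il10ra, Il2rg, Il5ra, Csf2rb and Csf2rb2. All 10 were found by their gene IDs and all 10 passed the filter on low counts. The libraries were made from polyA RNA of germinal centre (GC) B cells, the dividing cells in which antibody genes mutate and are selected, and of plasmablasts (PB), the dividing antibody-secreting cells that follow.

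Cytokine receptors of this kind have no kinase of their own. Ligand binding brings together a ligand-specific chain and a shared chain, the JAK kinases attached to them phosphorylate STAT factors, and SOCS proteins and CISH, which are themselves induced by the signal, damp it. In B cells, IL-21 and IL-4 from follicular helper T cells sustain the GC and guide class switching, whereas IL-6 and IL-5 are known for their action on antibody-secreting cells.

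There were 6 groups of 2 libraries, each library a pool of C57BL/6 mice, so n = 2 pools in every group. Myb knockout PB (Myb fl/fl CD23-cre T/+; pools of 5 and 4 mice) and Myb control PB (Myb fl/fl without cre; 6 and 7 mice) were sorted 5 days after immunised mice were boosted with NP-KLH in PBS. Myb knockout GC (Myb fl/fl CD23-cre T/+; 2 and 3 mice) and Myb control GC (Myb fl/fl without cre; 3 and 2 mice) were sorted on day 12 after NP-KLH in alum. Moz knockout GC (Moz fl/fl AID-cre T/+; 6 and 8 mice) and Moz control GC (AID-cre T/+ alone; 6 and 5 mice) were sorted on day 7. CD23 is the low-affinity IgE receptor of mature B cells. The Myb controls carried no cre, so the loss of Myb and the presence of cre cannot be told apart, whereas both Moz groups carried cre. PB and GC B cells also differed in immunisation and in sorting date, which cannot be told apart from cell type.

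Libraries held 8285934 to 24801297 counts. Immunoglobulin genes took 65.0 to 70.0% of the counts in PB, 1.59 to 3.03% in the Myb GC groups and 6.06 to 9.16% in the Moz GC groups. Myb itself had 22.6 and 18.3 unscaled CPM (counts per megacount of the library) in Myb knockout GC, against 22.8 and 17.3 in Myb control GC, and Kat6a, which encodes MOZ, had 104 and 139 in Moz knockout GC, against 130 and 106 in Moz control GC. These counts cover whole genes, and the sources used here do not name the floxed exons, so they check nothing about the deletions. Myb knockout GC pool 1 is labelled as females, yet it held 67.2 unscaled CPM of Ddx3y and 54.1 of Eif2s3y, both Y-linked, and Il13ra1 and Il2rg are X-linked. Calls in the Myb GC comparison, and the difference of the Myb effects, are therefore also given without that pool. Of 9 plasmablast markers 9 were higher in PB than in GC B cells of the Myb controls, and of 10 GC markers 9 were lower. Of all tested genes, 25% were higher and 28.1% lower.

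Levels below are CPM after TMM scaling, which sets the effective library size so that most genes do not differ between libraries. A gene is called where edgeR's quasi-likelihood test gives a Benjamini-Hochberg adjusted p under 0.05 over all 13131 genes tested. In bulk samples, fewer cells expressing a gene and less RNA per cell cannot be told apart. The genes and lists were chosen with earlier results of these data known. Shares of them called are therefore no test of them as sets.

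Stretches of promoter are shown for a receptor gene that was low in PB and for a pair that was high there. Each is the 250 bases before the RefSeq start site (build GRCm38.p6, the patch release of mm10), given on the gene's own strand. Capitals mark matches, on either strand, to the MYB motif AACNG, to the octamer ATGCAAAT, or to the STAT motifs TTCNNNGAA and TTC-GAA with 4 bases between. The octamer was added after these sequences had been seen.
Il4ra, chr7:125552021-125552270, plus strand: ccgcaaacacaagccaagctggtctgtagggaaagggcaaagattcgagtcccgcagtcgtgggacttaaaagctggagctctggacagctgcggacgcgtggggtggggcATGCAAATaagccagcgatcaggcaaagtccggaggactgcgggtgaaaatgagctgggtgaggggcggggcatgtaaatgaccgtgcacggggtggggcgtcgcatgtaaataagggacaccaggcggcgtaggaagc
Il13ra1, chrX:36111858-36112107, plus strand: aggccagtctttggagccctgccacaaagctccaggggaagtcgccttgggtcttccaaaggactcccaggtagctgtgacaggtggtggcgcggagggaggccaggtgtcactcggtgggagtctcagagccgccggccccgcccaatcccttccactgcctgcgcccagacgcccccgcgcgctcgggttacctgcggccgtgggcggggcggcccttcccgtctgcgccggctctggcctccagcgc
Il5ra, chr6:106749038-106749287, minus strand: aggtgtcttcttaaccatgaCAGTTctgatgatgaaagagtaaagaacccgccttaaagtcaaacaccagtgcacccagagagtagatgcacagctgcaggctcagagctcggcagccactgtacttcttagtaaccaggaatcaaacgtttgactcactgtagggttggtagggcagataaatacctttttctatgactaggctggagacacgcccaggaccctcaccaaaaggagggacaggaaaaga
The Il4ra window held 1 octamer, 139 bases before the start site. The Il5ra window held 1 match to the MYB motif, on its minus strand 230 bases before the start, and the Il13ra1 window held none of the 4. Of 32851 RefSeq promoter windows of the same length, 74.2% held AACNG, 1.60% the octamer, 7.02% TTCNNNGAA and 5.85% the longer STAT motif. RefSeq windows were matched for 8 of the 10 genes, all but Il10ra and Csf2rb. A match is a run of letters and no evidence of binding.

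PB and GC B cells carried different sets of receptor transcripts. The comparison asks which receptors change as B cells become antibody-secreting cells, and it was made in the Myb controls and again in the Myb knockouts. In the controls 5 of the 10 genes were higher in PB and 4 were lower, where 53.2% of all genes were called, 25% higher and 28.1% lower. In the knockouts the counts were again 5 and 4, where 51.6% of all genes were called, 24.4% higher and 27.2% lower. The median log2 fold change of the 10 was 1.10 in controls and 1.17 in knockouts, beside -0.17 over all tested genes in each. Il21r, Il4ra, Il9r and Il10ra were the lower genes, and Il13ra1, Csf2rb, Il5ra, Il6ra and Il2rg the higher ones in both genotypes, although Il6ra and Il2rg turned lower with library totals alone. Under unscaled library totals the median over all genes moved to -2.04 in controls and -2.21 in knockouts. The called genes split on that scale into 884 higher and 10394 lower in knockouts and 1108 higher and 9877 lower in controls, in place of 3203 and 3567 and of 3289 and 3695.

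**Figure D1:**
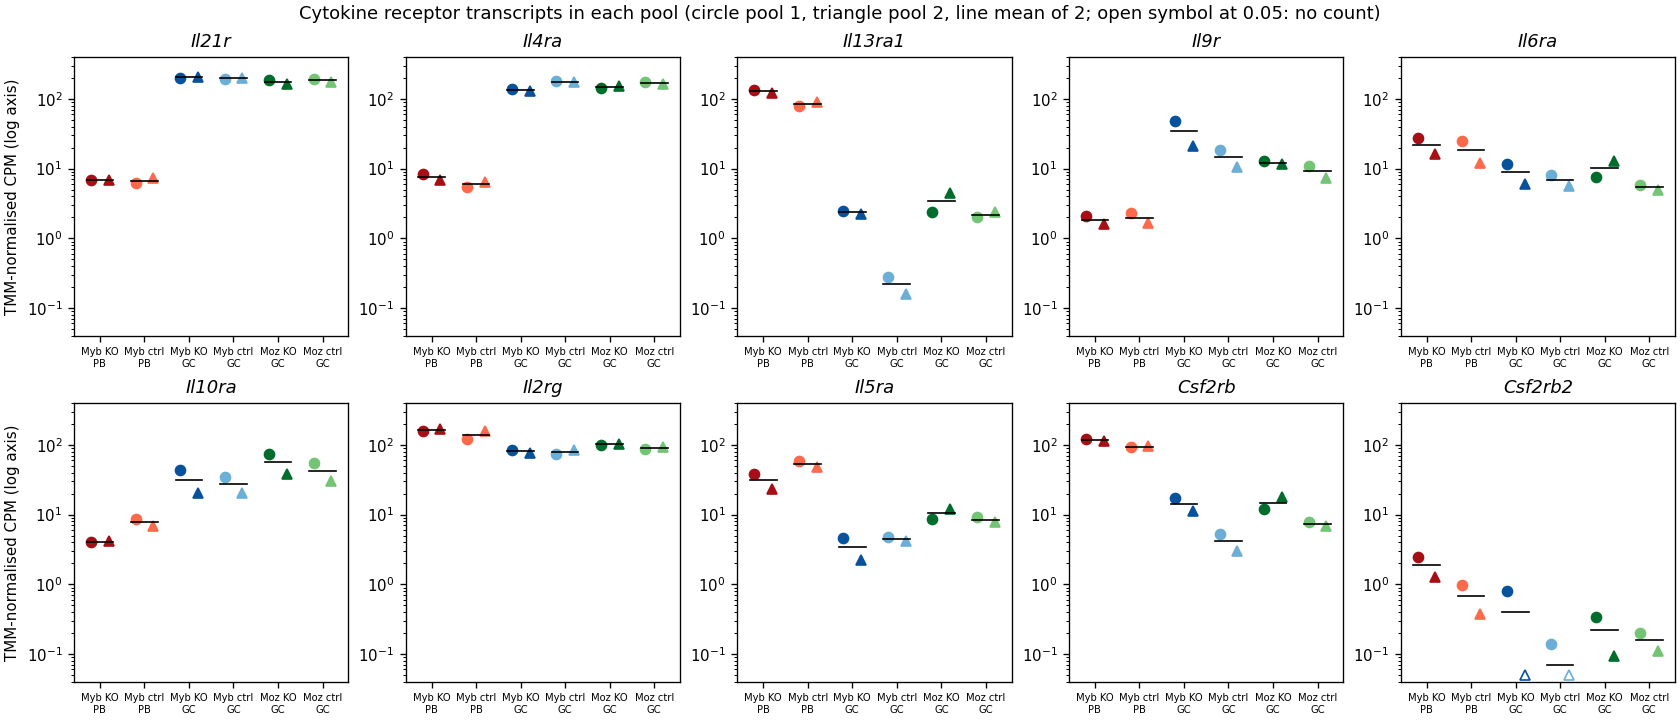
Level of each receptor transcript in TMM-normalised CPM (log axis) in each of the 12 pools; circles are pools 1, triangles pools 2, lines the mean of 2, and open symbols at 0.05 mark pools with no count. Il21r and Il4ra stood at 130.7 CPM or more in every GC pool and at 8.44 CPM or less in every PB pool, and Il13ra1 had the widest range.

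Of the chains that pair with the common gamma chain, Il21r (gene ID 60504, chr7:125603252-125634397), the ligand-binding chain for IL-21, had the highest level per kilobase of the 10 in GC B cells. It had 6.88 and 6.89 CPM in knockout PB and 6.20 and 7.28 CPM in control PB, against 202 and 207 CPM in knockout GC and 193 and 203 CPM in control GC. The PB and GC pools were far apart in both genotypes. The log2 fold change of PB over GC was -4.89 (SE 0.21, edgeR adjusted p = 1.49e-07) in knockouts and -4.88 (SE 0.21, edgeR adjusted p = 8.00e-08) in controls, a mean 29.4-fold lower in control PB.

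Il4ra (gene ID 16190, chr7:125552271-125579474) encodes the chain that binds IL-4 and, with Il13ra1, forms the receptor for IL-4 and IL-13. Il4ra had 8.44 and 6.77 CPM in knockout PB and 5.39 and 6.53 CPM in control PB, against 140 and 131 CPM in knockout GC and 179 and 175 CPM in control GC. Again no PB pool came near a GC pool. The log2 fold change was -4.15 (SE 0.21, edgeR adjusted p = 1.81e-07) in knockouts and -4.90 (SE 0.22, edgeR adjusted p = 8.00e-08) in controls. Il4ra and Il21r are neighbours, with 23777 bases between them.

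Il9r (gene ID 16199, chr11:32187544-32205283), the ligand-binding chain for IL-9, which has been studied in memory B cells, had 2.08 and 1.61 CPM in knockout PB and 2.34 and 1.63 CPM in control PB. It had 48.4 and 21.2 CPM in knockout GC and 18.8 and 10.4 CPM in control GC. Pool 1 was higher than pool 2 in each of these 4 groups, and PB was below GC in every pool. PB over GC gave a log2 fold change of -4.24 (SE 0.48, edgeR adjusted p = 2.12e-05) in knockouts and -2.86 (SE 0.47, edgeR adjusted p = 0.000318) in controls. The provisional gene Gm12109 overlaps Il9r, and the sources used here give no strand setting, so its reads could not be told apart from those of Il9r.

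Il10ra (gene ID 16154, chr9:45253837-45269149), the ligand-binding chain of the class II receptor for IL-10, had 4.02 and 4.13 CPM in knockout PB and 8.71 and 6.78 CPM in control PB. It had 43.1 and 20.5 CPM in knockout GC and 35.1 and 20.7 CPM in control GC. PB lay below GC in all pools, and the first GC pool was above the second in both genotypes (2.10-fold in knockouts and 1.69-fold in controls). The PB to GC log2 fold change was -2.96 (SE 0.49, edgeR adjusted p = 0.000384) in knockouts and -1.84 (SE 0.46, edgeR adjusted p = 0.00525) in controls.

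Il13ra1 (gene ID 16164, chrX:36112108-36171262), the low-affinity chain for IL-13, moved the other way. It had 134 and 123 CPM in knockout PB and 79.5 and 89.5 CPM in control PB, against 2.49 and 2.26 CPM in knockout GC and 0.279 and 0.161 CPM in control GC. The control GC pools held 4 and 2 counts. The log2 fold change was 5.75 (SE 0.32, edgeR adjusted p = 2.27e-07) in knockouts and 8.51 (SE 0.41, edgeR adjusted p = 8.05e-08) in controls. Over summed counts, the ratio of control PB to control GC was 373 with a 95% counting interval of 171 to 1017, which covers counting error only. The provisional gene Gm42406 overlaps Il13ra1.

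Il5ra and Csf2rb encode the ligand-specific chain for IL-5 and the beta chain that IL-3, IL-5 and GM-CSF receptors share. Il5ra (gene ID 16192, chr6:106710375-106749037) had 38.8 and 23.6 CPM in knockout PB and 59.0 and 48.7 CPM in control PB, against 4.58 and 2.26 CPM in knockout GC and 4.75 and 4.19 CPM in control GC. All PB pools were above all GC pools of the Myb groups. PB over GC reached a log2 fold change of 3.17 (SE 0.35, edgeR adjusted p = 1.72e-05) in knockouts and 3.59 (SE 0.35, edgeR adjusted p = 5.91e-06) in controls.

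Csf2rb (gene ID 12983, chr15:78325800-78351001) had 123 and 115 CPM in knockout PB and 93.5 and 95.8 CPM in control PB, against 17.2 and 11.4 CPM in knockout GC and 5.31 and 2.98 CPM in control GC. The pools did not overlap between cell types. Its log2 fold change was 3.05 (SE 0.29, edgeR adjusted p = 5.90e-06) in knockouts and 4.50 (SE 0.32, edgeR adjusted p = 5.86e-07) in controls.

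Csf2rb2 (gene ID 12984, chr15:78282507-78305721), the mouse copy of the beta chain that serves the IL-3 receptor alone, lies 20078 bases from Csf2rb. Libraries held 0 to 19 counts of Csf2rb2. The level was 2.47 and 1.26 CPM in knockout PB and 0.988 and 0.377 CPM in control PB, against 0.812 and 0 CPM in knockout GC and 0.140 and 0 CPM in control GC. It was not called (edgeR adjusted p = 0.107 in knockouts and 0.0969 in controls), but a fit with the replicate number as a block called it in both genotypes (edgeR adjusted p = 0.00118 in knockouts and 0.00288 in controls), where 66.7% and 67.8% of all genes were called. Of the 50-base words in the transcript of Csf2rb, 18.4% also occur in that of Csf2rb2, and 19.0% in the other direction, so counts could be split between them. No other pair of the 10 shared any such word.

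Il6ra (gene ID 16194, chr3:89869324-89913196), the ligand-binding chain for IL-6, had 27.5 and 16.1 CPM in knockout PB and 24.7 and 12.2 CPM in control PB, against 11.7 and 6.03 CPM in knockout GC and 8.10 and 5.72 CPM in control GC. Pools 1 were higher throughout, but within a genotype PB and GC did not overlap. The provisional gene Gm46811 overlaps Il6ra. PB over GC gave a log2 value of 1.29 (SE 0.43, edgeR adjusted p = 0.0251) in knockouts and 1.42 (SE 0.44, edgeR adjusted p = 0.0166) in controls, and turned to -0.78 and -0.44 with library totals alone. In knockouts the call was lost without PB pool 1 or GC pool 2 (edgeR adjusted p = 0.179 and 0.159), and likewise in controls (edgeR adjusted p = 0.202 and 0.102).

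Il2rg (gene ID 16186, chrX:101264385-101268255), the common gamma chain of the receptors for IL-2, IL-4, IL-7, IL-9, IL-15 and IL-21, had the smallest fold of the called genes. It had 161 and 172 CPM in knockout PB and 121 and 157 CPM in control PB, against 84.4 and 77.0 CPM in knockout GC and 75.1 and 85.5 CPM in control GC. The log2 fold change was 1.04 (SE 0.19, edgeR adjusted p = 0.000737) in knockouts and 0.79 (SE 0.19, edgeR adjusted p = 0.0044) in controls, but its direction rests on the scaling, since it was -1.01 and -1.10 with library totals alone. In unscaled CPM, Il2rg had 54.2 to 67.3 in PB and 121 to 146 in the GC pools of the Myb groups. The call in controls was lost without control PB pool 2 (edgeR adjusted p = 0.0569).

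**Figure D2:**
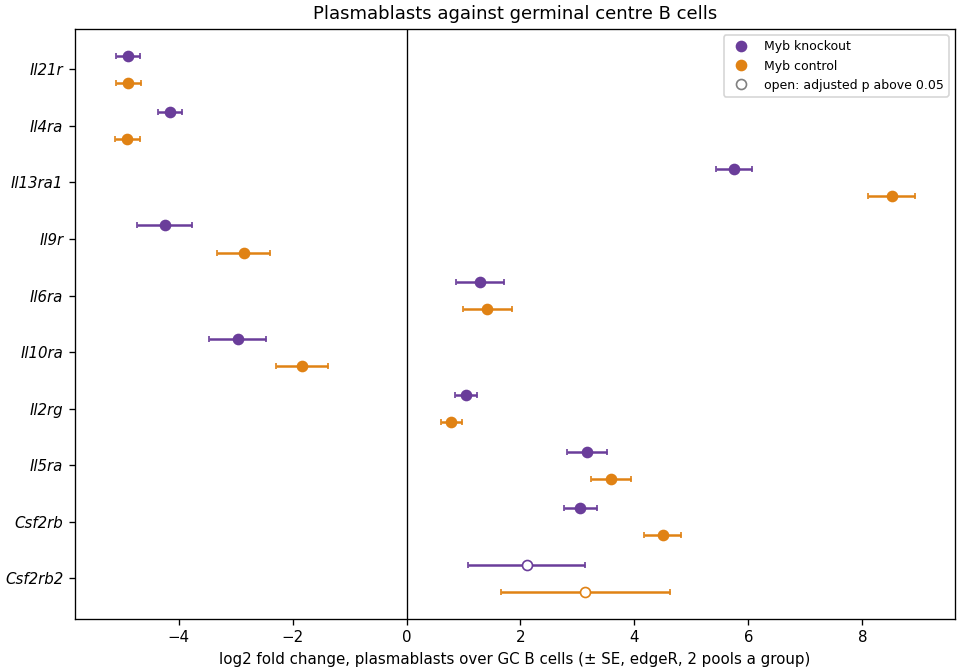
log2 fold change of PB over GC B cells with its standard error for each receptor gene, in Myb knockouts (purple) and Myb controls (orange); filled points are called. Il13ra1 and Csf2rb had smaller folds in knockouts, 5.75 and 3.05, than in controls, 8.51 and 4.50. In the fit without a replicate block neither difference was called (edgeR adjusted p = 0.354 and 0.672).

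Per kilobase of gene length, which allows genes to be compared, Il2rg led in PB with 103 ± 4.98 CPM per kb in knockouts and 86.0 ± 15.8 CPM per kb in controls (SD, n = 2 pools). Il13ra1 came next with 34.8 ± 2.26 and 22.9 ± 1.92 CPM per kb, then Csf2rb with 24.9 ± 1.15 and 19.9 ± 0.337 CPM per kb. In GC B cells Il21r led with 78.4 ± 1.43 CPM per kb in Myb knockouts and 75.9 ± 2.51 CPM per kb in Myb controls. Il2rg followed with 50.1 ± 3.26 and 49.8 ± 4.55 CPM per kb and Il4ra with 26.5 ± 1.23 and 34.7 ± 0.515 CPM per kb. Il21r made up 1.43% of the summed per-kilobase level of the 10 genes in knockout PB and 1.66% in control PB, against 42.9% in knockout GC and 42.8% in control GC.

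**Figure D3:**
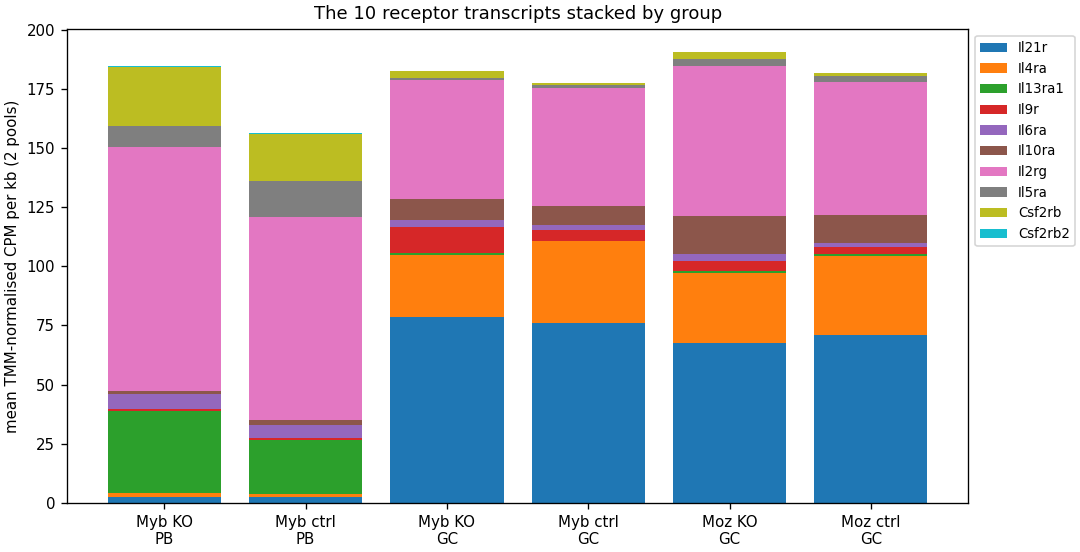
Mean TMM-normalised CPM per kb of the 10 receptor genes, stacked, in the 6 groups (mean of 2 pools). Il21r and Il4ra filled much of each GC column and almost none of the PB columns, where Il13ra1, Csf2rb and Il5ra took up part of the column beside Il2rg.

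Across the 6 groups, the order of levels separated PB from GC for 8 of the 10 genes without overlap of the pools at that step. That share was not counted over all genes, of which 53.2% were called between control PB and control GC. It is therefore no result about the 10. For Il21r the 4 GC groups stood in the order Myb knockout, Myb control, Moz control and Moz knockout, and neighbours overlapped at each step. For Il4ra the order was Myb control, Moz control, Moz knockout and Myb knockout GC, where only the first 2 overlapped. Il13ra1 ran from Moz knockout through Myb knockout to Moz control GC with overlapping pools, and Myb control GC stood apart below them. For Il6ra every neighbouring pair of groups overlapped, including control PB and Moz knockout GC.

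Partner chains and signalling genes behind these receptors were counted in the same comparison. Of 8 tested partner and common-chain subunits, 4 were higher and 2 lower in knockout PB, where 51.6% of all genes were called, and 4 were higher and 1 was lower in control PB, where 53.2% were. The shares of the JAK, inhibitor, adaptor and other receptor lists below stand beside that background, and a share near it is no result about the list. Il6st, the gp130 chain through which IL-6 signals, had 140 CPM in knockout PB and 148 CPM in control PB, against 7.70 CPM in knockout GC and 3.53 CPM in control GC (log2 in controls 5.38, SE 0.43, edgeR adjusted p = 1.30e-06). Il10rb, the partner of Il10ra, was also higher in control PB (log2 2.72, SE 0.23, edgeR adjusted p = 1.69e-06), opposite to Il10ra itself. Crlf2, the TSLP chain, and Il15ra rose too (log2 1.74 and 2.55, edgeR adjusted p = 0.000343 and 0.000522). With library totals alone they stood at -0.17 and 0.65 in controls, and neither was called.

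Csf2ra, the ligand-specific chain for GM-CSF, was lower in control PB (log2 -1.23, SE 0.41, edgeR adjusted p = 0.0258), and Il3ra was not called. Of 4 JAK kinases, Tyk2 was higher in control PB (log2 1.36, SE 0.27, edgeR adjusted p = 0.00131; -0.51 with library totals), while Jak1 and Jak3, the kinases that serve the gamma-chain receptors, were lower (log2 -1.49 and -0.67, edgeR adjusted p = 0.000221 and 0.00649). Among the STAT factors, Stat4 was higher in control PB (log2 0.77, edgeR adjusted p = 0.0223; -1.11 with library totals), and Stat5a and Stat6, which follow IL-5 and IL-4 receptors, were lower (log2 -1.40 and -0.84, edgeR adjusted p = 0.000554 and 0.0105).

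Among 15 inhibitors of signalling, 5 were higher and 4 lower in control PB, a share near the 53.2% of all genes. Socs2 and Cish, feedback inhibitors that STAT5 induces, had 16.3 and 6.47 CPM in knockout PB and 16.6 and 10.7 CPM in control PB. In GC B cells they had 1.09 and 0.266 CPM in knockouts and 0.145 and 0.185 CPM in controls, and both were called higher in control PB (log2 6.73 and 5.79, edgeR adjusted p = 9.00e-07 and 1.47e-05). The phosphatase genes Ptpn1 and Ptpn6 were lower (log2 -1.62 and -1.98, edgeR adjusted p = 1.11e-05 and 2.69e-05). Of 7 tested adaptors, Irs2, an adaptor of IL-4 signalling, and Pik3r1 were higher (log2 3.81 and 0.87, edgeR adjusted p = 0.000263 and 0.00243; Pik3r1 turned to -1.01 with library totals), and Sh2b2 and Grb2 were lower (log2 -5.79 and -1.86, edgeR adjusted p = 1.26e-07 and 1.08e-05).

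Of 14 transcripts known to be induced by cytokine signals, 8 were higher and 5 lower in control PB, where 25% of all genes were higher and 28.1% lower. Prdm1, which encodes the plasma cell factor Blimp-1, was among the higher (log2 5.82, edgeR adjusted p = 3.28e-07), and Fcer2a and Bcl6, which IL-4 or IL-21 induce in B cells, were lower (log2 -6.03 and -6.63, edgeR adjusted p = 1.68e-07 and 2.33e-07). Of 22 other tested cytokine receptor genes, 4 were higher and 8 lower, again near the 53.2% of all genes called. Ifnar2, of the type I interferon receptor, was higher (log2 3.71, edgeR adjusted p = 4.69e-07), as was Il1rap (log2 1.57, edgeR adjusted p = 0.000667; -0.31 with library totals), and Ifngr1 and Il17ra were lower (log2 -1.59 and -1.06, edgeR adjusted p = 2.18e-05 and 0.000432). The B cells carried few transcripts of the ligands: of 13 ligand genes only Il10 and Il15 passed the filter, and both were higher in control PB, with 3.45 and 12.2 CPM against 0.185 and 0.140 CPM in control GC (edgeR adjusted p = 0.000661 and 9.09e-06).

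Markers of other cells were measured in the same pools. Of the 10 markers of eosinophils, basophils and mast cells, cells known for Il5ra and Csf2rb, 2 were tested, Prg2 and Ccr3. Both were called higher in control PB and in knockout PB, where 25% and 24.4% of all genes were higher. Prg2 made up nearly all of a summed level of 293 to 656 CPM in the PB pools. These 10 markers summed to 14.4 and 14.4 CPM in knockout GC and to 1.82 and 2.34 CPM in control GC. Epx and Cpa3 had no count in any PB pool, and 3 to 8 of the 10 had none in a single PB pool. Of 7 tested myeloid markers 3 were higher and none lower in control PB, where 25% of all genes were higher and 28.1% lower, and the list summed to 83.1 and 41.2 CPM in knockout PB and 92.1 and 45.9 CPM in control PB, against 44.2 and 11.5 CPM in knockout GC and 34.4 and 12.9 CPM in control GC. Pools 1, which also had more Il6ra, were the higher of each of these pairs. In Moz knockout GC the list summed to 29.0 and 26.5 CPM, with Il6ra at 7.64 and 12.8 CPM. In Moz control GC it summed to 15.1 and 22.8 CPM, with Il6ra at 5.80 and 5.02 CPM. The T cell list summed to 162 to 224 CPM in PB, of which Cd28 gave 156 to 218 CPM. The part of such cells in the results was not tested.

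In the Myb knockout, Il13ra1 and Csf2rb were higher in GC B cells. The comparison asks which receptors change in GC B cells without Myb, 12 days after immunisation. Both were called and none was lower, 2 of 10 genes, where 0.259% of all genes were called and 0.236% were higher (31 higher and 3 lower). The median log2 fold change of the 10 was 0.28, beside 0 over all genes. The 10 were chosen with earlier results of these data known, so this share and median are no test of the set.

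Il13ra1 had 2.49 and 2.26 CPM in knockout GC, against 0.279 and 0.161 CPM in control GC, from 43 and 33 counts against 4 and 2. Both knockout pools were well above both control pools. The difference was a log2 fold change of 3.37 (SE 0.48, edgeR adjusted p = 0.0220), and the ratio over summed counts was 10.6 with a 95% counting interval of 4.66 to 29.9. Without knockout pool 1, whose label the Y-linked counts go against, it was 3.30 and no longer called (edgeR adjusted p = 0.0846), nor was it without control pool 1 or control pool 2 (edgeR adjusted p = 0.178 and 0.228).

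Csf2rb had 17.2 and 11.4 CPM in knockout GC, against 5.31 and 2.98 CPM in control GC. The lowest knockout pool was above the highest control pool, and the knockout was 3.23-fold above the control among pools 1 and 3.81-fold among pools 2. Its log2 value was 1.77 (SE 0.31, edgeR adjusted p = 0.0431). It lay close to the threshold: without knockout pool 1 it was 1.45 (edgeR adjusted p = 0.247). It kept its call without knockout pool 2 but lost it on leaving out any 1 of the other 11 libraries, with an edgeR adjusted p of 0.0544 to 0.392. In the fit with the replicate block, where pools with the same number share experiment dates, the adjusted p values of Il13ra1 and Csf2rb were 0.0016 and 0.000889 by edgeR, and 2.42% of all genes were called, 2.03% higher. With the block and without knockout pool 1 the log2 values of Il13ra1 and Csf2rb were 3.75 and 1.93. That fit compares knockout pool 2 with control pool 2 alone, so no replicates stand behind those values.

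Il9r had 48.4 and 21.2 CPM in knockout GC, against 18.8 and 10.4 CPM in control GC. Knockout pool 2 lay just above control pool 1, so the pools did not overlap, and the ratio was 2.58 among pools 1 and 2.04 among pools 2. The log2 fold change was 1.25 (SE 0.38, edgeR adjusted p = 0.347), and the blocked fit called it (log2 1.21, SE 0.16, edgeR adjusted p = 0.00197), so that 3 of the 10 were higher there. Without knockout pool 1 its log2 value was 0.53, and 1.03 with the block (edgeR adjusted p = 0.205).

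Il4ra had 140 and 131 CPM in knockout GC, against 179 and 175 CPM in control GC, with no overlap and a log2 fold change of -0.39 (SE 0.18, edgeR adjusted p = 0.894). Il21r and Il2rg had log2 values of 0.05 and 0.01 with SE 0.18 and 0.19. Il6ra, Il10ra and Il5ra had log2 values of 0.36, 0.19 and -0.37 (SE 0.43, 0.42 and 0.36), and their signs changed when 1 knockout pool was left out. Csf2rb2 had 14 counts in knockout pool 1, none in knockout pool 2, and 2 and 0 in the controls.

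**Figure D4:**
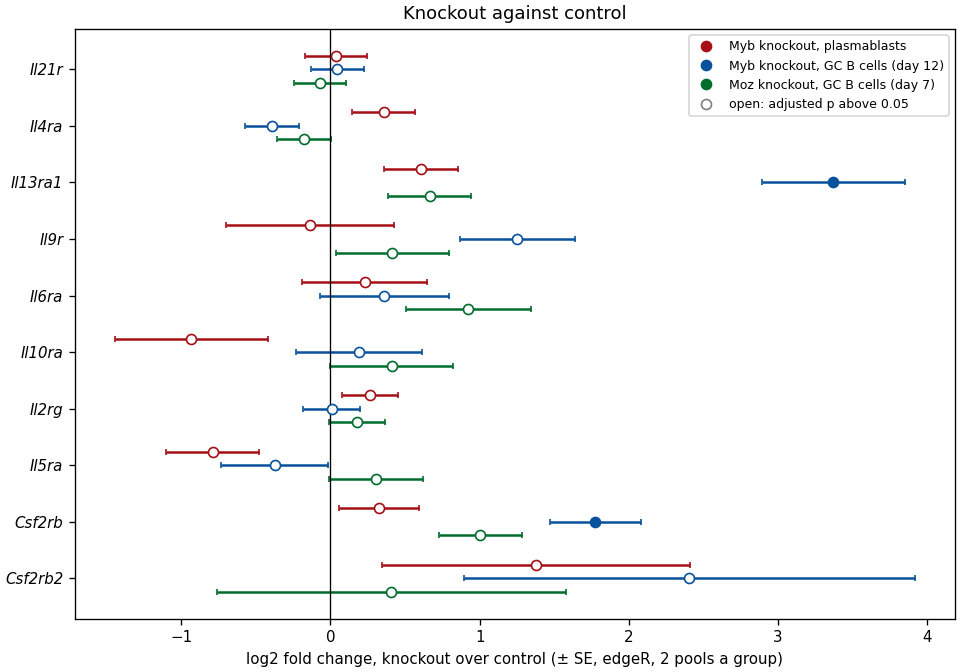
log2 fold change of knockout over control with its standard error for each receptor gene, in Myb PB (red), Myb GC B cells (blue) and Moz GC B cells (green); filled points are called. Il13ra1 and Csf2rb in Myb GC B cells, at 3.37 and 1.77, are the only filled points.

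Both called genes were also high in PB, and markers of PB were measured in the same pools. Of 9 PB markers 1 was called higher in knockout GC (Prdm1, log2 2.34, SE 0.35, edgeR adjusted p = 0.0248), and 5 were in the blocked fit. Without knockout pool 1, Prdm1 had a log2 value of 2.04 and lost its call. With the block as well, its value was 1.88 and it was not called either. The 9 summed to 1649 and 2412 CPM in knockout GC, against 1237 and 2015 CPM in control GC, with none of the 9 at 0. The summed levels overlapped between the groups, but the knockout was above the control among pools 1 and among pools 2. Jchain alone gave 281 and 271 CPM of those rises. The rise of Il13ra1 amounted to 1.72% of its knockout PB level among pools 1 and 1.63% among pools 2, and that of Csf2rb to 9.99% and 7.07%. For the 9 markers the median was 0.463% and 0.522%, with Prdm1 the highest at 7.42% and 4.33%. The part of PB-like cells in the rises was not tested.

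**Figure D5:**
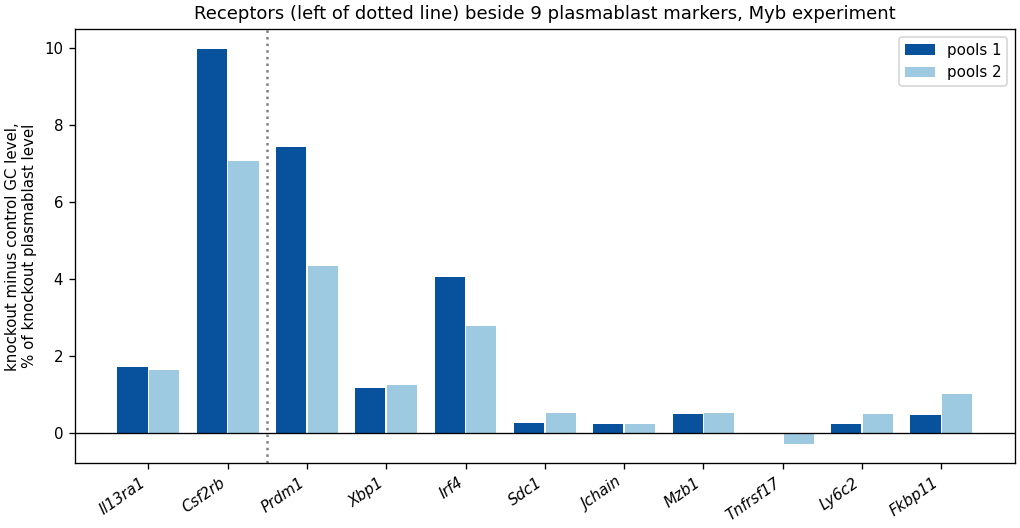
Knockout minus control level in GC B cells as a percentage of the level in Myb knockout PB, for Il13ra1 and Csf2rb and for 9 PB markers; dark bars are pools 1 and light bars pools 2. Csf2rb stood at 9.99% and 7.07%, above each marker of the same pools, and Il13ra1 at 1.72% and 1.63%.

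Of the signalling genes, only Prdm1 was called in the Myb GC comparison, while the blocked fit called more, with 2.42% of all genes called, 2.03% higher. There, Il2rb, the beta chain of the IL-2 and IL-15 receptors, was higher with 15.8 CPM in knockout GC against 5.30 CPM in control GC (log2 1.59, SE 0.31, edgeR adjusted p = 0.0282). Il6st was higher as well (log2 1.12, SE 0.23, edgeR adjusted p = 0.0286), so 2 of 8 partner subunits were higher. Of the inhibitors, Socs2 and Socs3 were higher, 2 of 15 (log2 2.85 and 1.85, edgeR adjusted p = 0.0129 and 0.0338).

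Of 14 induced transcripts 3 were higher and 2 lower in the blocked fit, against the same 2.42% of all genes. Irf1, an interferon-induced transcription factor, had 70.4 CPM in knockout GC against 25.4 CPM in control GC (log2 1.47, SE 0.13, edgeR adjusted p = 0.000163), and Fcer2a and Nfil3 were lower (log2 -0.83 and -1.19, edgeR adjusted p = 0.0251 and 0.0215). Fcer2a encodes CD23, whose promoter drives the cre. The adaptor gene Sh2b2 was lower as well (log2 -0.66, edgeR adjusted p = 0.0211). A fit with 1 knockout GC library has less power, so a call lost in it does not show a smaller effect. Most of these blocked calls were lost without knockout pool 1. Without it, the blocked fit compares knockout pool 2 with control pool 2 alone. Irf1 then had a log2 value of 1.47, while Il2rb, Il6st, Socs2 and Socs3 had 1.21, 0.92, 2.83 and 1.42 and were not called. Fcer2a, Nfil3 and Sh2b2 stood at -1.14, -1.39 and -0.46 there and were not called either.

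In Myb knockout PB none of the 10 genes was called, against 0.0381% of all genes, by edgeR, by DESeq2 or in the blocked fit (0.579% of all genes there), and 2 had an unadjusted p under 0.05. Il13ra1 had 134 and 123 CPM in knockout PB, against 79.5 and 89.5 CPM in control PB (log2 0.60, SE 0.25, edgeR adjusted p = 1). Il5ra had 38.8 and 23.6 CPM in knockout PB, against 59.0 and 48.7 CPM in control PB (log2 -0.79, SE 0.31, edgeR adjusted p = 1). Il10ra had 4.02 and 4.13 CPM in knockout PB, against 8.71 and 6.78 CPM in control PB (log2 -0.93, SE 0.51, edgeR adjusted p = 1, and 0.0923 with the block). The pools did not overlap for these 3, nor for Il4ra, Il2rg, Csf2rb and Csf2rb2, and none of the 10 passed the threshold. How many of all genes had pools without overlap was not counted. Besides Il13ra1, Il5ra and Il10ra, the log2 values lay between -0.14 and 0.36, apart from Csf2rb2 at 1.38 (SE 1.03).

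The difference of the Myb effects, PB minus GC, was tested directly. It was -2.76 for Il13ra1 (SE 0.56, edgeR adjusted p = 0.354) and -1.45 for Csf2rb (SE 0.41, edgeR adjusted p = 0.672). None of the 10 was called, against 0.00762% of all genes, and 3 had an unadjusted p under 0.05. The blocked fit called both (edgeR adjusted p = 0.0263 and 0.0273), against 0.541% of all genes, and DESeq2 called Il13ra1 alone (adjusted p = 0.0339). Without knockout GC pool 1 the differences were -2.69 and -1.12 (edgeR adjusted p = 0.68 and 1), and -3.15 and -1.60 with the block (edgeR adjusted p = 0.215 and 0.197), so neither was called.

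In the Moz knockout, sorted on day 7, none of the 10 genes was called, as 0% of all genes were (315 genes, 3 of the 10 among them, had an unadjusted p under 0.05). DESeq2 called 12 genes and none of the 10. The median log2 fold change of the 10 was 0.41, beside -0.01 over all genes. Csf2rb had 12.0 and 17.7 CPM in Moz knockout GC, against 7.83 and 6.97 CPM in Moz control GC, with no overlap. Its log2 fold change was 1.00 (SE 0.28, edgeR adjusted p = 1), and it was called in the blocked fit (log2 0.99, SE 0.16, edgeR adjusted p = 0.0408), against 0.297% of all genes.

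Il13ra1 had 2.37 and 4.53 CPM in Moz knockout GC, against 1.99 and 2.40 CPM in Moz control GC, where knockout pool 1 and control pool 2 were level (log2 0.67, SE 0.28, edgeR adjusted p = 1). Il6ra had 7.64 and 12.8 CPM in Moz knockout GC, against 5.80 and 5.02 CPM in Moz control GC (log2 0.92, SE 0.42, edgeR adjusted p = 1). In both, knockout pool 2 was the highest of the 4. The 9 PB markers summed to 6793 and 8321 CPM in Moz knockout GC, against 5256 and 5916 CPM in Moz control GC, and 1 of the 9 was called higher in the blocked fit. The part of PB-like cells was not tested. Il21r, Il4ra and Il2rg had log2 values of -0.07, -0.18 and 0.18, each within 1 SE of 0.

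Between the controls of the 2 experiments, GC B cells of day 12 and of day 7 differed in Il13ra1. The comparison sets Myb control GC against Moz control GC, which differ in day, in cre and floxed alleles and in experiment, and these cannot be told apart. Of the 10 genes 1 was lower and none higher, where 1.38% of all genes were called and 1.08% were lower. Il13ra1 had 0.279 and 0.161 CPM on day 12, against 1.99 and 2.40 CPM on day 7 (log2 -3.25, SE 0.47, edgeR adjusted p = 0.00831). The day 12 pools were far below those of day 7, and the call was lost without either day 12 pool (edgeR adjusted p = 0.0774 without pool 1 and 0.0883 without pool 2).

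Csf2rb had 5.31 and 2.98 CPM on day 12, against 7.83 and 6.97 CPM on day 7 (log2 -0.82, SE 0.30, edgeR adjusted p = 0.397). Il5ra had 4.75 and 4.19 CPM on day 12, against 9.11 and 7.83 CPM on day 7 (log2 -0.92, SE 0.34, edgeR adjusted p = 0.396). Neither gene's pools overlapped. In the blocked fit 4 were lower (Il13ra1, Csf2rb, Il10ra and Il5ra) and Il9r was higher, against 5.48% of all genes. The 9 PB markers were lower as well, 6 of the 9 in the fit without the block and 9 with it, summing to 1237 and 2015 CPM on day 12 against 5256 and 5916 CPM on day 7. Among the signalling genes Stat4 and Socs2 were lower on day 12 (log2 -1.55 and -2.88, edgeR adjusted p = 0.0117 and 0.0398). The part of PB-like cells was not tested.

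For the 4 genes with the widest range over the 6 group means, the genes of most similar pattern were found by the root mean square difference of centred log2 CPM over those 6 means, among 11764 genes. Il13ra1 was nearest to Prg2 (0.33), Mt1 (0.49) and Tmem154 (0.50). Il21r was nearest to Rmi2 (0.06), Uhrf1 (0.08) and Spag5 (0.11), and Il4ra to Susd3 (0.07), H2ax (0.09) and Btg1 (0.10). Csf2rb was nearest to Gbp7 (0.15), Metrnl (0.18) and Ipcef1 (0.22). The distances for Il13ra1 were larger than for the other 3, and its range was 8.62 on the log2 scale, against 4.90, 4.87 and 4.86 for Il21r, Il4ra and Csf2rb. Prg2 was picked for its likeness to Il13ra1 over these same 6 means, so its values are no separate evidence for the pattern. Prg2 had 550 CPM in knockout PB and 434 CPM in control PB, against 13.8 CPM in knockout GC and 1.85 CPM in control GC. It was called higher in knockout GC (log2 2.90, SE 0.43, edgeR adjusted p = 0.0248). Without knockout GC pool 1 that value was again 2.90 but not called. With the block as well, which leaves 1 pool against 1, it was 2.77.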

How the data were processed

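Raw gene counts were deposited by the authors, one table per library and one of the whole series, made with featureCounts and the mm10 build, per the submitters' processing notes. The tables matched (0 genes differed) and 0 sample columns were left unmapped. The featureCounts version, the aligner and the handling of strand and of multiply mapped reads are not stated in those notes. Labels give no number of cells, and each library is a pool of mice, so p-values measure the spread between pools. RefSeq GRCm38.p6 gave symbols, coordinates and promoters; 25275 IDs had a symbol and 1904 had none. The genes and lists were chosen with earlier results of these data known.

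The 12 libraries were fitted together in edgeR 4.0.16 under R 4.3.3, as 6 group means, leaving 6 residual degrees of freedom. The filter was filterByExpr with a minimum count of 10 and a minimum total of 15 (13131 genes kept). TMM factors ran from 0.392 to 0.450 for PB and from 1.45 to 1.73 for GC. The quasi-likelihood F tests were two-sided, with Benjamini-Hochberg adjustment over the tested genes and a limit of 0.05. The biological coefficient of variation was 0.221, and pools of a group differed by 26.3 to 96.1 times counting noise, as a chi-square divided by its degrees of freedom. The smallest p an exact test of 2 pools against 2 can give is 0.333.

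Same-numbered knockout and control pools share experiment dates in the labels, so the numbers pair them, and their deviations from group means correlated at 0.600 (Myb GC), 0.453 (Myb PB) and 0.361 (Moz GC). A fit with the replicate block has 3 residual degrees of freedom. Other alternatives were RLE scaling, DESeq2 1.42.0, no filter, immunoglobulin genes left out and each library left out, and, added after seeing the data, library totals without TMM and the block without Myb knockout GC pool 1. From each list, up to 4 called genes per comparison are named by smallest p, all 10 receptor genes always, and the same rule was applied to the blocked fit after its values were seen. Gene levels are compared between genes only per kilobase of the length given in the files. Scripts were tested on simulated data. Results for some signalling genes are not reported here.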

Additional observations from a re-analysis of the deposited data

How the results depend on the processing

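Between PB and GC B cells, the calls of Il21r, Il4ra, Il9r, Il10ra, Il13ra1, Il5ra and Csf2rb held, with their direction, in both genotypes under all 19 alternatives. With library totals in place of TMM, Il6ra had -0.44 in controls and -0.78 in knockouts and Il2rg -1.10 and -1.01, each on the log2 scale, where the median of all genes was -2.04 and -2.21. Csf2rb2 was called under 5 of the 19 alternatives in controls and under 3 in knockouts, with the replicate block among them in both genotypes. With the block and without Myb knockout GC pool 1 it was called in controls alone. In Myb GC B cells the number of receptor genes called fell to 1 (Il13ra1) with immunoglobulin genes left out and to 1 with library totals, and ran from 0 to 2 when each library was left out in turn. It was 0 without control pool 1, without control pool 2 and without knockout pool 1. Counts of called genes were 0 in Moz GC B cells, 1 (Csf2rb) with the replicate block and 1 with no low-count filter. Between day 12 and day 7 the count of 1 became 5 with the replicate block, 2 with no filter, and 0 to 1 over the left-out libraries. The count for the difference of the Myb effects was 0, and became 2 with the replicate block, 1 with DESeq2 and 2 with no filter. With the block and without Myb knockout GC pool 1, an alternative added after seeing the data, these counts were 2 in Myb GC B cells, 0 in Moz GC B cells, 4 between days and 0 for the difference of effects. In that last alternative the Myb GC comparison rests on knockout pool 2 against control pool 2 alone, so its count has no replicates behind it. The cause of the changes in these counts was not tested.

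Some values that were not called changed sign with 1 library left out. In Myb GC B cells the log2 fold change ran from -0.20 to 0.75 for Il6ra, -0.44 to 0.62 for Il10ra, -0.98 to 0.029 for Il5ra and -3.55 to 5.97 for Csf2rb2. It ran from -0.33 to 0.17 for Il9r and -0.17 to 0.84 for Il6ra in Myb PB, and from -0.13 to 0.91 for Il10ra and -0.70 to 1.15 for Csf2rb2 in Moz GC B cells. Il21r in Myb PB, Moz GC B cells and the difference of effects, and Il2rg in Myb GC B cells, changed sign within 0.17 of 0. The difference of the Myb effects ran from -0.53 to 0.49 for Il6ra, -0.82 to 0.19 for Il5ra and -4.59 to 4.92 for Csf2rb2; with the block and without Myb knockout GC pool 1 it was 0.0725 for Il5ra and 1.445 for Csf2rb2, which had no count in the remaining knockout GC pool.

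Over all genes, the Myb GC comparison called 34, Myb PB 5, Moz GC 0, the days 181 and the difference of effects 1. The block gave 318, 76, 39, 719 and 71. DESeq2 gave 158, 49, 12, 348 and 46, no filter gave 320, 104, 55, 501 and 136, and leaving out immunoglobulin genes gave 22, 0, 0, 105 and 1 for the same 5. Without Myb knockout GC pool 1, the Myb GC count was 3, and 48 with the block. Of the 60 group means of the 10 genes, 56 moved by more than their SD in unscaled CPM, 52 with immunoglobulin genes left out and 5 with RLE scaling. Depth limits Csf2rb2, and Il13ra1 in Myb control GC, which rest on 0 to 19 and on 2 and 4 counts per library.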

Other observations

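Il9r and Il10ra also differed between the pools of a group. Il9r was higher in pool 1 than in pool 2 in all 6 groups, by 1.29-fold in knockout PB and 1.43-fold in control PB, 2.29-fold in knockout GC and 1.81-fold in control GC of the Myb experiment, and 1.13-fold in knockout GC and 1.46-fold in control GC of the Moz experiment. For Il10ra the ratios of pool 1 to pool 2 were 2.10 and 1.69 in Myb knockout and control GC and 1.91 and 1.84 in Moz knockout and control GC, and 0.974 and 1.29 in knockout and control PB. Pools differ in date, in the number of mice and, per the labels, in their sexes.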
